A study of Mus musculus with 28 samples.

Results

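Trp53, Cdkn1a, Pmaip1, Bbc3, Bax, Apaf1, Aen and Cflar, 8 genes of p53 signalling and germ cell apoptosis, were followed across primordial germ cells (PGCs, the precursors of eggs and sperm) of the mouse gonad. They were chosen by name, with earlier results of these data known. All 8 of 8 were found among the 22138 genes of the RNA table and of the promoter table. All libraries came from E13.5 embryos. Germ cells were the SSEA1+ fraction of sorted gonads, and the gonadal soma was the SSEA1- fraction. The cross deletes Setdb1, the gene of a histone H3 lysine 9 methyltransferase. KO germ cells were Setdb1 delta/-. The controls were Het1 (delta/+) and Het2 (flox/-), which both carry a single working copy, and WT (flox/+). RNA was measured in each sex in 1 WT library, 2 Het1, 2 Het2 and 2 KO libraries, with 1 further PGC and 1 soma library from C57BL/6 wild-type males. H3K9me3 and H3K27me3 were measured in 1 Het2 and 1 KO germ cell library per sex and mark, and H3K9me3 also in 1 male C57BL/6 soma library. Neither the Cre driver that made the delta allele nor whether replicates are single embryos or pools is given in the sources used here. The p-values therefore measure the spread between libraries, which may be technical.

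p53, the product of Trp53, is a transcription factor that DNA damage and other stresses stabilise. It switches on cell cycle arrest, chiefly through Cdkn1a, and the mitochondrial route to apoptosis. In that route the BH3-only proteins encoded by Pmaip1 (NOXA) and Bbc3 (PUMA) neutralise survival proteins of the BCL-2 family. Bax then opens the outer mitochondrial membrane, and released cytochrome c joins Apaf1 in the apoptosome, which activates caspases. Aen is a p53-induced nuclease that degrades DNA in dying cells. Cflar (c-FLIP) acts on the other route, below the death receptors, where it holds back caspase-8. Germ cells that fail to reach the gonad or carry unrepaired damage are known to be removed by Bax-dependent apoptosis.

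The promoter windows of 5 of these genes are shown, because 3 of them differed between the sexes (Trp53, Bax, Aen), 1 rose in KO (Cflar) and Cdkn1a is the standard p53 target. The sequences are RefSeq's for build GRCm38.p6, from 250 bases before to 50 after an annotated start, written 5′ to 3′ on the strand of the gene. Windows were matched by symbol for 7 of the 8 genes. Capitals mark the letters that match the p53 half-site consensus, a palindrome that reads alike on both strands.
Trp53, chr11:69580109-69580408, plus strand: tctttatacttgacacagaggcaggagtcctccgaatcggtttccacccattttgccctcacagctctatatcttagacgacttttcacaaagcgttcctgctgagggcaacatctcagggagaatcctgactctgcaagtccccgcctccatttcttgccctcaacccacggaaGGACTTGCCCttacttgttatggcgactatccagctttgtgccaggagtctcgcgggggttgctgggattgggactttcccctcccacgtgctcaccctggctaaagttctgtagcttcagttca
Cdkn1a, upstream start, chr17:29090729-29091028, plus strand: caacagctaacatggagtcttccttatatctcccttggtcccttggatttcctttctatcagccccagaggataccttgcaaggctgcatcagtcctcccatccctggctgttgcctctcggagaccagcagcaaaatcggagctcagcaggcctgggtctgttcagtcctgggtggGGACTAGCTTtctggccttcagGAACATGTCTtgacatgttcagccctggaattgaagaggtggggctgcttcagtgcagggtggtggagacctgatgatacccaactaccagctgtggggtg
Bax, chr7:45466849-45467148, minus strand: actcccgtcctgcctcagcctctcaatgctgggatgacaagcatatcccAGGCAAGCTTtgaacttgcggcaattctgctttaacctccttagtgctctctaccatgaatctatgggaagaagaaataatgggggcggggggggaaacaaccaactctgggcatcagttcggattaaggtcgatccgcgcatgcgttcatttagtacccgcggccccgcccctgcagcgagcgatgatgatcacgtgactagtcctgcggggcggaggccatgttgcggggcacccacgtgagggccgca
Aen, downstream start, chr7:78895808-78896107, plus strand: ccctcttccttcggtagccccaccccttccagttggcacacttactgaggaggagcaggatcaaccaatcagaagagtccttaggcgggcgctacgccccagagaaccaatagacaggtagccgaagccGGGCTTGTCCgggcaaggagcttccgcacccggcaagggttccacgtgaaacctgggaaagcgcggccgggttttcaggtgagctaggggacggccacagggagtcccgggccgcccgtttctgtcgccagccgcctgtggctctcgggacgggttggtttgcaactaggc
Cflar, chr1:58711241-58711540, plus strand: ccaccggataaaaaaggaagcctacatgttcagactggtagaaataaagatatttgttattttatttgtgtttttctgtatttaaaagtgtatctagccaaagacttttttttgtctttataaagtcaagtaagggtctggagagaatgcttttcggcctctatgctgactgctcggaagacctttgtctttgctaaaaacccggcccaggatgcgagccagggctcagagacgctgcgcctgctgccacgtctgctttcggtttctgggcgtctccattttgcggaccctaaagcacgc

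The half-site match was found in 8.36% of 32851 promoter windows of the same length, and a match is a description only. Counting bases from the start, Trp53 held 1 match at -75 and Bax 1 at -201. Aen held 1, at -121 from its downstream start and 10 from its upstream start, since those windows overlap. The upstream Cdkn1a window held 2, at -73 and -51. The Cflar and Apaf1 windows, the 3 Bbc3 windows and the second Cdkn1a window held none, which says only that these letters are absent from these 300 bases. CpG pairs ranged from 2 in the upstream Cdkn1a window and 12 in Cflar to 46 in Apaf1, against a median of 7 over all windows. GC boxes (GGGCGG on either strand, in 35.7% of windows) numbered 3 in Bax and 3 in Apaf1 and 4 to 6 in the Bbc3 windows. CCAAT boxes (CCAAT on either strand, in 37.4% of windows) were found in Trp53, Aen and 1 Bbc3 window.

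Values are RPKM, reads per kilobase of gene scaled to library size, so levels of different genes can be set side by side, but the depth of each library is unknown. Germ cell markers (9 genes) summed to 1026 RPKM or more in each of the 12 Het and KO libraries and to 7.84 in soma. Setdb1 RNA stood at 29.2 ± 2.89 RPKM in male KO (SD, n = 2) against 46.1 ± 6.25 in male Het (n = 4), and at 33.0 ± 2.38 against 45.7 ± 9.05 in females. Every KO library lay below every Het library of its sex, but the difference over both sexes did not pass the test (log2 difference -0.54, SE 0.13, limma adjusted p = 0.0783). These values do not tell RNA of the deleted allele from RNA of an intact one, so how complete the deletion was is not known. The share of all genes whose groups do not overlap was not counted. Here and below, a lack of overlap therefore only describes the values. Male Het1 replicate 1 had the lowest mean rank correlation with the other male libraries (0.955, against 0.968 to 0.974), and female Het2 replicate 1 with the other female ones (0.946, against 0.954 to 0.966). Both scored 24.3 to 29.8 on the second principal component (14.5% of the variance), as did replicate 1 of the male and of the female KO, and the other 8 libraries scored -27.9 to -0.992. Results that rest on these 2 Het libraries are given without them too, an alternative chosen after the values were seen.

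In the male Het germ cells Bax stood highest, at 102 ± 3.98 RPKM (SD, n = 4), with Pmaip1 at 81.0 ± 50.4 and Trp53 at 66.5 ± 17.8 within reach of each other's libraries. Cdkn1a followed at 28.4 ± 9.86 RPKM, below every Trp53 library and above every library of the remaining genes. Aen (9.23 ± 0.834), Apaf1 (8.45 ± 2.74) and Bbc3 (4.24 ± 2.26) overlapped their neighbours, and Cflar was lowest at 1.08 ± 0.299 RPKM. In female Het germ cells the order changed at 1 place above all: Pmaip1 moved to the bottom, at 0.638 ± 0.375 RPKM (n = 4), within the range of Cflar at 1.13 ± 0.279. Bax (41.2 ± 12.4), Cdkn1a (34.1 ± 3.66) and Trp53 (33.7 ± 15.2) overlapped at the top.

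**Figure D1:**
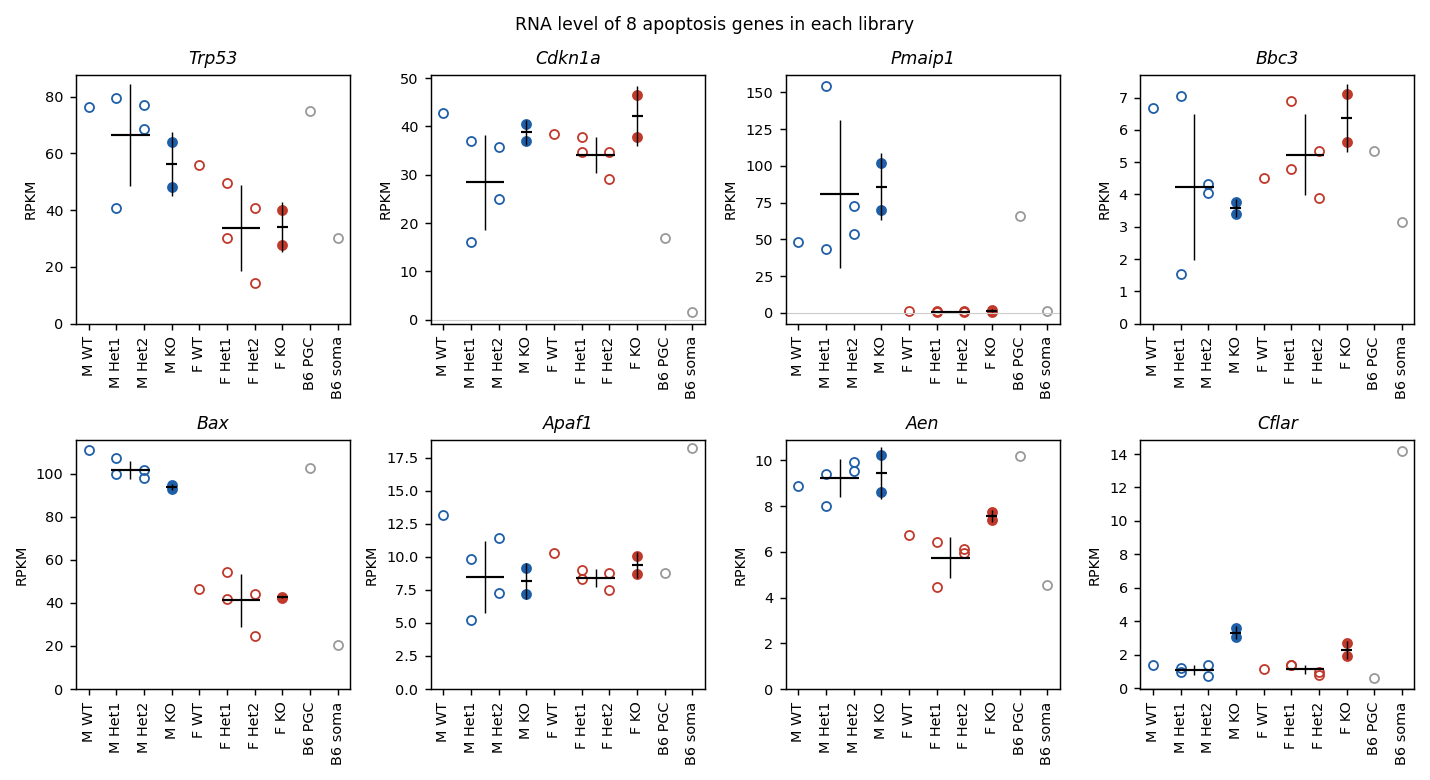
RNA level in RPKM of the 8 genes in each of 16 libraries (points; blue male, red female, grey C57BL/6; filled for KO), with the mean and SD of the pooled Het libraries (n = 4) and of the KO libraries (n = 2) per sex as black lines; B6 stands for C57BL/6. Pmaip1 is near 0 in every female library and in soma, Bax is split by sex with no overlap, and Cflar is higher in all 4 KO libraries than in any Het library of the same sex.

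The sexes were compared within Het to see which pathway genes already differ between male and female germ cells at this stage. Trp53, Pmaip1, Bax and Aen were lower in females, and no member was higher. These 4 of 8 stand beside 31.9% of all 13518 genes tested that passed in either direction, and 14.3% that passed as lower in females. With 8 genes, those shares show only that a difference between the sexes is common in these cells. Of the 4312 genes that passed, 55.0% were higher in females, and 44.8% of 4362 after the libraries were centred on their medians. The tests were limma on log2(RPKM + 1) with p-values adjusted over all genes tested, and in bulk libraries fewer cells that carry a transcript and less of it per cell cannot be told apart.

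Pmaip1 gave the widest gap. The male Het libraries held 154 and 43.6 RPKM (Het1) and 72.5 and 53.5 RPKM (Het2), and the female ones 0.96 and 0.26 (Het1) and 0.96 and 0.37 (Het2). The lowest male library was thus far above the highest female one, and the ratio of the means was 127. The log2 difference of RPKM + 1 was -5.50 (SE 0.35, adjusted p = 5.53e-07), a scale that understates the change of a gene this low in females. The other libraries lay on the same sides: WT held 48.4 RPKM in the male and 1.14 in the female, C57BL/6 male germ cells held 65.9, and the KO libraries held 102 and 69.6 in males and 2.22 and 0.61 in females. The female KO library at 2.22 RPKM, replicate 1, also held 0.84 RPKM of the Y-linked gene Ube1y1 and 0.38 of Eif2s3y, which the other female KO library lists at 0, and the part of male RNA in its Pmaip1 value was not tested.

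Bax, the membrane pore protein, was also split without overlap. It stood at 99.9 and 107 RPKM (Het1) and 102 and 97.9 RPKM (Het2) in males, and at 54.3, 41.9, 24.5 and 44.0 RPKM in the female Het libraries in the same order. Males varied little among themselves, and female Het2 replicate 1 was the lowest of all. The log2 difference was -1.34 (SE 0.19, adjusted p = 0.000302), and -1.12 (adjusted p = 9.41e-05) without the 2 libraries that stood apart. WT held 111 RPKM in the male and 46.6 in the female.

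Trp53 itself was lower in females with overlap. The male Het libraries held 40.6, 79.6, 68.8 and 76.9 RPKM (Het1, then Het2), and the female ones 49.4, 30.2, 14.3 and 40.9 RPKM. Male Het1 replicate 1 lay below the highest female library, and female Het2 replicate 1 was the lowest. That library held 260.6 RPKM of erythroid markers (6 genes, 9.71% of soma), against 1.78 to 3.82 in the other female Het libraries, and the part of blood cells in its Trp53 and Bax values was not tested. The log2 difference was -1.05 (SE 0.33, adjusted p = 0.0284). Without the 2 libraries that stood apart it was -0.91 (adjusted p = 0.00591), but without female Het2 replicate 1 alone it was -0.69 (adjusted p = 0.0538), and the call was also lost without male Het1 replicate 2, either male Het2 replicate or female Het1 replicate 2 (adjusted p from 0.0616 to 0.0695). With Het1 alone as controls it was -0.55 (adjusted p = 0.362), so the Trp53 difference rests on few libraries.

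Aen, the nuclease, held 8.02 and 9.42 RPKM (Het1) and 9.93 and 9.54 RPKM (Het2) in males against 6.45 and 4.46 (Het1) and 5.95 and 6.13 (Het2) in females. The groups did not overlap. The log2 difference was -0.61 (SE 0.15, adjusted p = 0.0076). It was the same size with Het1 or Het2 alone as controls, -0.60 and -0.61, but with 2 libraries per group it did not pass (adjusted p = 0.147 and 0.0872).

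The other 4 members did not pass between the sexes. Cdkn1a differed by 0.32 on the log2 scale (95% interval -0.16 to 0.79) and Bbc3 by 0.34 (-0.28 to 0.97). Apaf1 differed by 0.04 (-0.40 to 0.47) and Cflar by 0.03 (-0.34 to 0.41), with signs that turned under other scalings. The upper ends for Cdkn1a and Bbc3 lie beyond the size of the Aen difference, so these intervals do not show that the sexes were alike. Beside these differences, germ cell markers summed to 1862 to 2555 RPKM in male Het and to 1429 to 1788 in female Het, and Sertoli cell markers to 16.1 to 75.7 RPKM (8 genes) against 19.0 to 26.0. Soma held 1.24 RPKM of Pmaip1 and 20.5 of Bax, below the male germ cells for both, and the part of other cells in the sex differences was not tested.

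**Figure D2:**
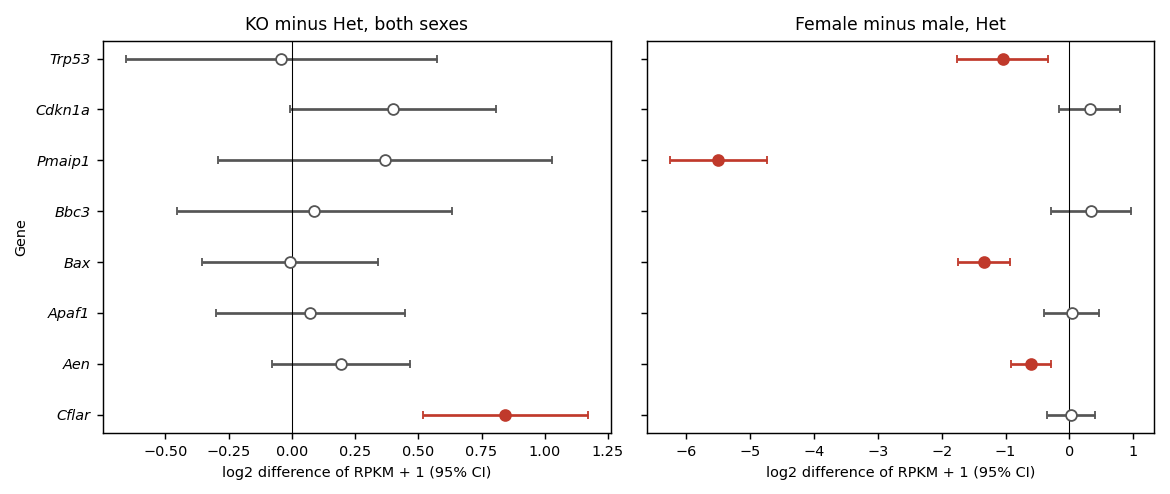
Log2 differences of RPKM + 1 for the 8 genes with 95% confidence intervals from limma, KO minus Het averaged over the sexes (left) and female minus male in Het (right); filled red points passed an adjusted p of 0.05. Cflar (0.84) is the member that passed on the left, and Pmaip1 (-5.50), Bax (-1.34), Trp53 (-1.05) and Aen (-0.61) passed on the right.

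KO and Het were compared for the effect of losing Setdb1 on the pathway. Cflar, the caspase-8 inhibitor, rose, and no other member passed in either sex or over both. Over both sexes 1 of 8 members was called, where 1.04% of all genes tested passed, 1.01% as higher in KO. In males alone 1 of 8 was called against a background of 0.614%, and in females 0 of 8 against 0.407%, where 1 member had an unadjusted p under 0.05. Each call was that of Cflar. The members were chosen with earlier results of these data known, so nothing is read from these counts beside the shares. For a difference of the KO effect between the sexes no member passed, where 0.0518% of genes did, and no member had an unadjusted p under 0.05. Intervals were wide, as for Pmaip1 (-1.05 to 1.59 on the log2 scale), so they do not show that the effects were alike.

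The male Het libraries held 1.23 and 0.96 RPKM of Cflar (Het1) and 0.73 and 1.41 RPKM (Het2), and the male KO libraries 3.58 and 3.03. The female Het libraries held 1.36 and 1.36 (Het1) and 0.80 and 0.99 (Het2), and the female KO libraries 2.68 and 1.91. Every KO library thus exceeded every Het library of its sex, and also the WT libraries at 1.38 (male) and 1.15 (female). The ratio of KO to Het means was 3.05 in males and 2.04 in females. The log2 difference of RPKM + 1 was 0.84 over both sexes (95% interval 0.52 to 1.17, adjusted p = 0.0146) and 1.06 in males (SE 0.21, adjusted p = 0.0462). In females it was 0.63 (0.17 to 1.09, adjusted p = 0.254), and the difference between the sexes was -0.43 (-1.08 to 0.23). Centring the libraries on their medians lowered every female KO difference by 0.14, and left Cflar at 0.49 in females.

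The call depends on single libraries, though the direction did not turn under any alternative run. Over both sexes it was lost without male KO replicate 1 (adjusted p = 0.147), male KO replicate 2 (0.0725) or female KO replicate 1 (0.15), with Het1 (0.232) or Het2 (0.103) alone as controls and after quantile normalization (0.0659). In males it was lost in most alternatives, at adjusted p up to 0.835 without male KO replicate 1. Without the 2 libraries that stood apart it held over both sexes, at 0.82 (adjusted p = 0.016), and in males, at 1.09 (adjusted p = 0.0362).

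Cflar RNA was high in soma, at 14.2 RPKM, so markers of somatic cells are given beside it. The rise of the male mean equalled 15.7% of the soma level. Steroidogenic cell markers summed to 4.60 to 7.71 RPKM (8 genes) in male Het and to 30.3 to 71.1 in male KO, which is 3.55% to 8.34% of soma, with 5 of 7 tested markers called higher. In females they summed to 5.98 to 12.7 RPKM in Het and to 6.00 to 7.61 in KO, with Hsd3b1 and Lhcgr at 0 in 1 KO library. The male WT library held 21.8 RPKM of these markers with 1.38 of Cflar. Stromal markers (8 genes, 0 called, none at 0 in KO) summed to 15.7 to 35.8 RPKM in male Het, 29.8 to 39.5 in male KO, 14.3 to 42.2 in female Het and 38.6 to 53.04 in female KO, at most 2.88% of soma. Sertoli markers summed to 28.7 to 76.5 RPKM in male KO and 36.3 to 43.8 in female KO, above the female Het range of 19.0 to 26.0, and at most 9.78% of soma. Pregranulosa markers (7 genes) summed to 10.95 to 13.53 RPKM in male Het and 14.3 to 14.6 in male KO, and to 10.3 to 19.8 in female Het and 22.1 to 26.1 in female KO. The sums of macrophage, endothelial and erythroid markers overlapped between KO and Het in both sexes. The endothelial sum was as high in C57BL/6 germ cells as in soma (47.5 and 37.5 RPKM), and the single endothelial marker Kdr, picked out after its values were seen, did not overlap. Kdr stood at 1.0 to 3.07 RPKM in male Het and at 6.23 and 4.46 in male KO. In females Kdr stood at 3.06 to 6.77 RPKM in Het and at 10.73 and 6.84 in KO, and in soma at 20.4. Its log2 difference over both sexes was 0.92 (limma adjusted p = 0.103). The 3 tested endothelial markers ran from -0.35 to 0.92 over both sexes, with a median of 0.20, so not all of them rose. Germ cell markers summed to 2175 to 2291 RPKM in male KO, inside the male Het range of 1862 to 2555, and to 1026 to 1344 in female KO, below the female Het range of 1429 to 1788. The part of such cells in the Cflar rise was not tested.

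Cdkn1a, which p53 induces, stood at 16.0 and 36.9 RPKM (Het1) and 25.1 and 35.8 RPKM (Het2) in male Het, and at 37.0 and 40.6 in male KO. In females it stood at 37.8, 34.8, 34.7 and 29.0 RPKM in Het and at 46.6 and 37.7 in KO. The male KO libraries lay just above all male Het libraries but not above male WT at 42.7, and the females overlapped. The log2 difference over both sexes was 0.40 (95% interval -0.01 to 0.81, adjusted p = 0.408), which does not pass, and the interval reaches a rise near that of Cflar.

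The trigger genes and the pore showed no called change. Over both sexes Trp53 differed by -0.04 on the log2 scale (-0.65 to 0.57) and Bax by -0.01 (-0.36 to 0.34). The male KO Bax libraries (94.9 and 92.7 RPKM) lay below all 4 male Het libraries, and the female ones (42.4 and 42.8 RPKM) within the Het range. Pmaip1 differed by 0.37 (-0.29 to 1.03) and Bbc3 by 0.09 (-0.45 to 0.63). Apaf1 differed by 0.07 (-0.30 to 0.45) and Aen by 0.19 (-0.08 to 0.47), where the 2 female KO libraries (7.76 and 7.39 RPKM) lay above all 4 female Het libraries. Bbc3 stayed between 1.54 and 7.11 RPKM and Apaf1 between 5.25 and 11.4 RPKM over the 12 Het and KO libraries. RefSeq places Ikbip across part of Apaf1, and how reads of overlapping genes were counted is not given in the sources used here. The median difference of the 8 members was 0.14, against 0.05 over all genes tested.

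The wider pathway was read from 6 lists of p53 regulators, p53 targets, BCL-2 family members, caspases and apoptosome parts, death receptor components and germ cell survival genes, without the 8 members. The table held 109 of the listed genes, of which 97 were tested. By the limma fit of the 4 group means none passed in KO against Het, in males, females or both sexes, nor in the difference between the sexes. Unadjusted, 10 of the 97 had a p under 0.05 over both sexes (10.3%, beside 12.6% of all genes tested). In males 4 had one (4.12%, beside 4.55%), in females 11 (11.3%, beside 12.4%), and 1 had one for the difference between the sexes (1.03%, beside 3.65%). The death receptor list had the highest median, 0.24 over 8 tested genes, and the germ cell survival list the lowest, -0.07 over 16.

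The listed genes nearest the threshold were 2 partners of Cflar in the death receptor route. Ripk3, the kinase of necroptosis, stood at 0.90 to 2.73 RPKM in male Het and 5.13 to 7.57 in male KO. In females it stood at 0.37 to 2.14 RPKM in Het and 2.66 to 2.73 in KO (log2 difference over both sexes 1.01, SE 0.25, limma adjusted p = 0.0934). Casp8, the initiator caspase that Cflar restrains, stood at 0.58 to 1.88 RPKM in male Het and 2.40 to 3.90 in KO, and at 1.07 to 3.15 and 4.29 to 4.63 in females (0.84, SE 0.22, adjusted p = 0.109). Neither passed in this fit. Tnfrsf1a, the receptor of tumour necrosis factor, gave 0.55 (adjusted p = 0.221). Its RNA was high in soma, at 39.85 RPKM against 1.49 in the male germ cell library set beside it. Of the somatic marker sums given above, steroidogenic ones were higher in male KO, Sertoli ones in female KO and pregranulosa ones in both sexes. The other somatic sums overlapped between KO and Het. The part of somatic cells in the differences of Ripk3, Casp8 and Tnfrsf1a was not tested.

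In the other lists the nearest genes included Bmf, a BH3-only protein (0.51, adjusted p = 0.132), and the survival protein gene Bcl2 (0.40, adjusted p = 0.264). Among p53 regulators they were Hipk2, a kinase that phosphorylates p53 (0.37, adjusted p = 0.411), and Cdkn2a, whose ARF product restrains Mdm2 (0.57, adjusted p = 0.507). Among p53 targets they were the antiproliferative gene Btg2 (0.54, adjusted p = 0.342) and Sfn (0.27, adjusted p = 0.419). The germ cell genes Ddx4 (-0.27, adjusted p = 0.346) and Dazl (-0.37, adjusted p = 0.377) led the survival list. None of these passed by limma. Bcl2 RNA was also high in soma, at 18.98 RPKM against 0.33 in the male germ cell library set beside it. The part of somatic cells in these differences was not tested.

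The count of 0 changed without the Het libraries that stood apart, an alternative that keeps the 2 KO libraries that scored alike on the second component. Without male Het1 replicate 1 and female Het2 replicate 1, 5 listed genes passed over both sexes, while 566 of all genes passed. Ripk3 (1.14, adjusted p = 0.0341), Cdkn2a (0.86, adjusted p = 0.0392) and Casp8 (0.66, adjusted p = 0.0489) were then higher in KO. Kit, the stem cell factor receptor on which germ cell survival depends (-0.55, adjusted p = 0.0202), and the checkpoint kinase gene Chek2 (-0.51, adjusted p = 0.034) were lower.

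Between the sexes in Het, 33 of the 97 listed genes passed (34.0%), 17 higher and 16 lower in females, close to the 31.9% of all genes. The median difference of the listed genes was -0.02, against 0.05 over all genes. With Het1 alone or Het2 alone as controls 9 and 12 passed, while 1159 and 1449 of all genes did. Targets of p53 went both ways, 7 higher and 7 lower of 27 tested.

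Higher in females were the DNA damage gene Gadd45a (12.9 ± 2.85 RPKM, SD, n = 4, against 4.32 ± 0.277 in males; log2 difference 1.37, adjusted p = 9.97e-05), the desmosomal apoptosis effector Perp (1.48, adjusted p = 0.001) and the repair endonuclease gene Ercc5 (0.95, adjusted p = 0.000298). Lower were the kinase gene Plk3 (-2.14, adjusted p = 0.000927), which ranged from 0 to 3.10 RPKM in female Het and from 8.10 to 10.8 in male Het, and Pml of the nuclear bodies (-1.29, adjusted p = 0.00054). The list of p53 targets leaves out the members Bax, Pmaip1 and Aen, p53 targets that were lower in females. It also leaves out Cdkn1a and Bbc3, which did not pass.

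Among the caspases Casp6 was higher in females (25.2 ± 2.99 RPKM, SD, n = 4, against 9.37 ± 2.36 in males; 1.36, adjusted p = 0.000275). Inhibitors of apoptosis went both ways, with Xiap higher (0.63, adjusted p = 0.00615) and Birc5 (-0.64, adjusted p = 0.00483) and Birc3 (-0.49, adjusted p = 0.0389) lower. On the BCL-2 family list the BH3-only gene Bid (0.56, adjusted p = 0.0117) and the survival gene Bcl2l2 (0.56, adjusted p = 0.019) were higher. None of the 12 tested genes on that list passed as lower. The list leaves out Bax and Pmaip1, BCL-2 family genes that were lower in females, and Bbc3, which did not pass. In the death receptor route Cyld, a deubiquitinase (1.81, adjusted p = 0.00179), and the kinase gene Ripk1 (0.63, adjusted p = 0.0143) were higher.

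Of the p53 regulators, the checkpoint kinase genes Chek1 (0.57, adjusted p = 0.00906) and Atr (0.66, adjusted p = 0.027) and the p53 relative Trp73 (0.60, adjusted p = 0.04) were higher in females. Trp53bp1 (-0.58, adjusted p = 0.00424), whose product binds p53 and damaged chromatin, was lower. Of the germ cell survival genes, Pou5f1 (-1.09, adjusted p = 0.0223) and Nanos3 (-1.36, adjusted p = 0.0261) were lower and Ube2t of the Fanconi pathway (0.64, adjusted p = 0.00426) was higher. Nanos2, the male germ cell fate gene, stood at 1.59 to 57.6 RPKM in male Het, and each female Het library lists it at 0 (adjusted p = 0.0143).

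**Figure D3:**
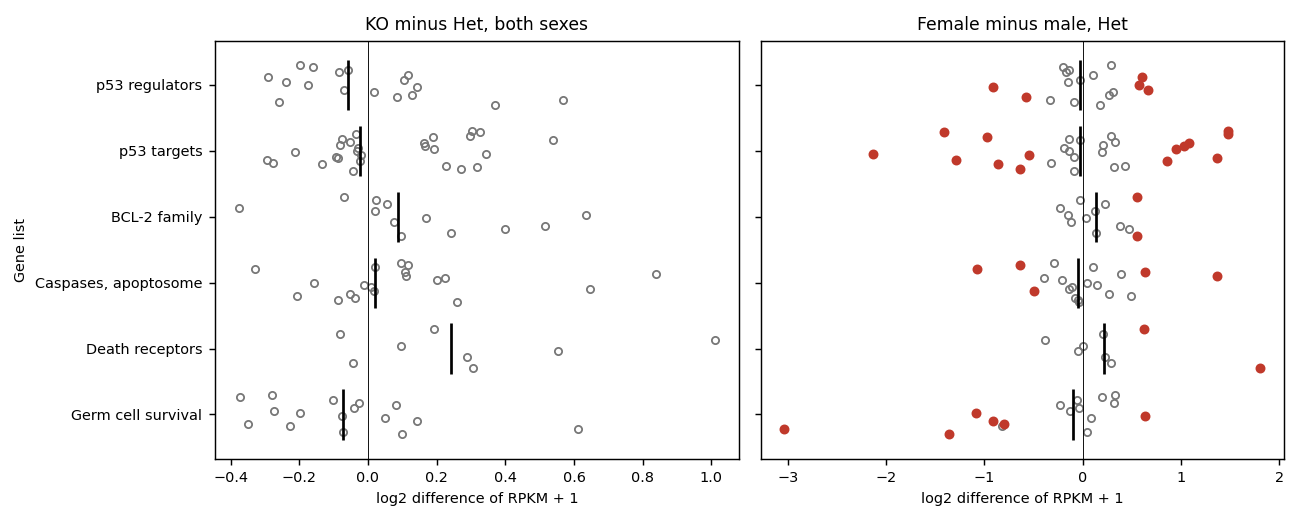
Log2 differences of RPKM + 1 for the tested genes of 6 pathway lists without the 8 members, KO minus Het averaged over the sexes (left) and female minus male in Het (right); each point is a gene, filled red where the adjusted p was under 0.05, and the black bar is the list's median. No gene passed on the left, and 33 passed on the right, 17 higher and 16 lower in females, with p53 targets on both sides of 0.

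Soma and germ cells were set side by side in the 1 C57BL/6 male library of each, with no replicate and no test. By a 2-fold rule on RPKM + 1, Trp53 (30.2 RPKM in soma against 74.8 in germ cells), Cdkn1a (1.5 against 16.8), Pmaip1 (1.24 against 65.9), Bax (20.5 against 103) and Aen (4.53 against 10.2) were lower in soma. Cflar (14.2 against 0.62) was higher, and Bbc3 (3.14 against 5.33) and Apaf1 (18.2 against 8.80) stayed inside the rule. That makes 6 of 8, where 46.3% of 13457 genes passed in either direction. In these 2 libraries the RNA of Trp53, Cdkn1a, Pmaip1, Bax and Aen was thus higher in germ cells, and that of Cflar was lower. Aen was only just past the rule, at a log2 ratio of soma to germ cells of -1.02. Of the 94 listed pathway genes at the minimum, 24 were higher in soma (25.5%, beside 28.7% of all genes) and 30 lower (31.9%, beside 17.6%). The lists include germ cell genes such as Dazl, Ddx4 and Pou5f1, whose choice raises the share lower in soma. Nothing is read from that share about apoptosis. The largest ratios were those of Tnfrsf1a (39.9 against 1.49 RPKM), Bcl2 (19.0 against 0.33) and Plk2 (41.6 against 1.95) on the soma side, and of the germ cell genes Dazl (1.89 against 607), Ddx4 (1.28 against 273) and Pou5f1 (0.75 against 181).

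H3K9me3, the mark that SETDB1 writes, and H3K27me3, the Polycomb mark, were read within 1 kb on either side of each gene's start, in 1 library per sex, genotype and mark, so no difference has a replicate check. Among the members Pmaip1 stood apart in both marks. Its H3K27me3 was 1.45 RPKM in male Het, 1.46 in male KO, 1.67 in female Het and 1.52 in female KO, above 95.5% to 99.3% of all promoters. Its H3K9me3 was 0.645, 0.804, 0.590 and 0.527 RPKM in the same order, above 93.7% to 96.7%. Female minus male, the RNA of this gene differed by -5.50 on the log2 scale of RPKM + 1, over 4 Het libraries per sex. Its H3K27me3 differed by 0.19 on the log2 scale of RPKM + 0.1, in 1 Het2 library per sex. These scales and libraries are not the same, and a link between mark and RNA was not tested.

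The other 7 promoters carried less of either mark than Pmaip1 in germ cells. Their H3K27me3 ran from 0.067 RPKM (Bax in male KO) to 0.508 (Bbc3 in male KO), around the all-promoter medians of 0.249 to 0.296. Their H3K9me3 in germ cells ran from 0, as Trp53 is listed in male KO, to 0.400 (Aen in male Het), with medians of 0.127 to 0.179. These highest values lay above 71.1% (Bbc3) and 86.7% (Aen) of all promoters in their libraries. Cflar, the gene that rose in KO, had 0.038 RPKM of H3K9me3 in male Het and 0.033 in male KO, and 0.094 and 0.083 in females. At most 23.9% of all promoters lay below it in each of these 4 libraries. Its H3K27me3 was 0.234 RPKM in male Het and 0.096 in male KO, and 0.264 and 0.149 in females.

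By a 2-fold rule met in the same direction in both sexes, with at least 1 RPKM in Het or KO of each sex, no member was called for H3K9me3 between KO and Het, where 7.56% of 238 promoters passed, and no member reached the minimum. For H3K27me3 none was called either, with Pmaip1 alone at the minimum, where 0.0556% of 1800 promoters passed. Between female and male Het H3K27me3 none was called, again with Pmaip1 alone at the minimum, where 1.39% of 2796 promoters passed. Between male soma and male Het germ cells 81.9% of the 4306 promoters at the minimum passed for H3K9me3, but 4008 of them reached the minimum in soma alone, so the filter favours a call. The 3 members at the minimum, Cdkn1a (1.02 against 0.077 RPKM), Aen (1.09 against 0.400) and Pmaip1 (1.11 against 0.645), also reached it in soma alone, and the first 2 were past 2-fold. Nothing is read from that count, and the soma is C57BL/6 wild type while the germ cells are Het2. Listed pathway promoters with the largest such ratios were those of Htra2, Pidd1, Bad, Ddb2 and Nanos3, with log2 ratios of 3.0 to 3.5, and none was called in the other 3 promoter comparisons.

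**Figure D4:**
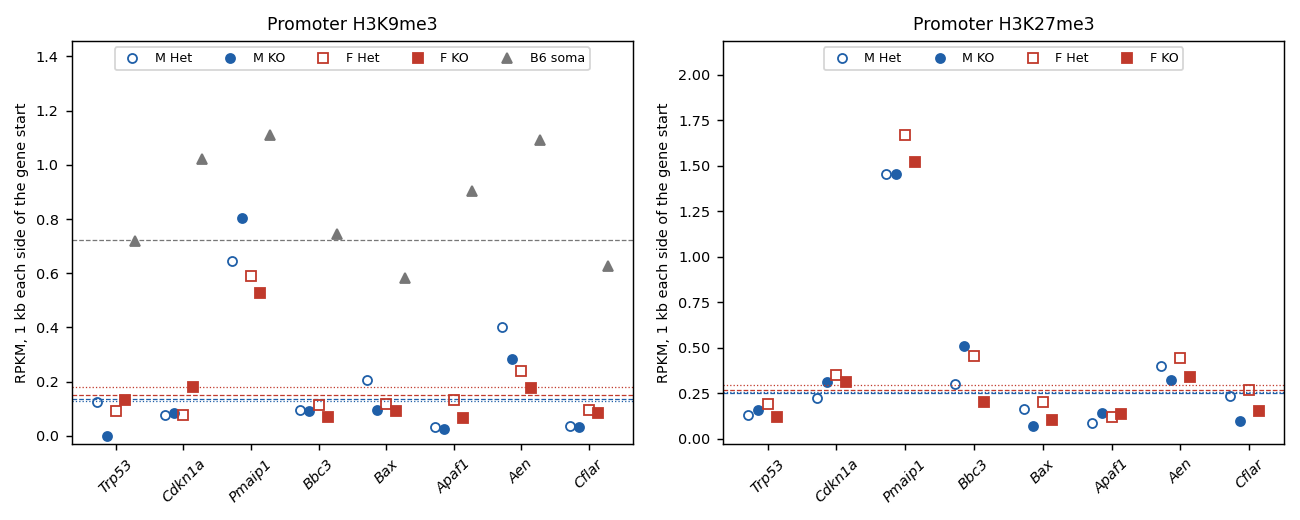
Promoter H3K9me3 (left) and H3K27me3 (right) of the 8 genes in RPKM over 1 kb on each side of the start, 1 library per point (circles male, squares female, filled for KO, triangles C57BL/6 soma); horizontal lines give each library's median over all promoters in the same colour, dotted for Het and dashed for KO and soma. Pmaip1 lies at 1.45 to 1.67 in H3K27me3 in both sexes, and Cflar at or under 0.094 in H3K9me3 in germ cells.

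The genes most like each member were named by the root mean square difference of log2(RPKM + 1), centred on each gene's mean, over the 12 Het and KO libraries. For Pmaip1 they were the Y-linked genes Ube1y1 (0.29) and Eif2s3y (0.40), next to its own SD of 2.88. Both stand at 0.84 RPKM or below in every female library. For Cflar they were Zbtb39 (0.18) and Gata6 (0.19), next to an SD of 0.46. Zbtb39 held 7.22 ± 0.860 RPKM in male Het (SD, n = 4) against 16.1 ± 1.17 in male KO (n = 2), and 6.44 ± 0.90 against 10.1 ± 0.884 in females. Gata6, a gene of gonadal somatic cells, held 1.41 ± 0.399 against 3.76 ± 1.32 in males and 1.58 ± 0.83 against 2.76 ± 0.636 in females.

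For Trp53 the nearest were Mapk4 (0.17) and 2310022A10Rik (0.18), and for Bax Fam100b (0.11) and Kcnk5 (0.11), next to SDs of 0.69 and 0.71. Aen was nearest to 4930444A02Rik (0.11) and the chaperone gene Calr (0.13). Cdkn1a was nearest to Ssr3 and Fat3 (0.16 each), Bbc3 to Fgfr1 and Sept4 (0.15 each), and Apaf1 to Ppp2r5c (0.10) and Cep76 (0.12). These are likenesses over libraries that share sex and genotype, and no test goes with them.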

How the data were processed

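The authors' deposited gene table gives RPKM (reads per kilobase of gene, scaled to library size) per Ensembl gene, and the deposited promoter table gives RPKM within 1 kb of either side of each start. The submitters' processing notes name BWA, SAMtools and the mm9 build. Neither versions nor the counter nor its strand setting is given in the sources used here. The deposited repeat table, the total H3 library and the 2 PBAT libraries were not analysed here.

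The 12 Het and KO libraries were fitted as 4 means (Het1 and Het2 pooled) with limma 3.58.1 in R 4.3.3 (lmFit, eBayes with trend) on log2(RPKM + 1), for the 13518 genes that reached RPKM 1 in 2 or more libraries. Tests were two-sided, with Benjamini-Hochberg adjustment over all genes tested and a threshold of 0.05. WT and C57BL/6 libraries stayed outside the fit. Comparisons with 1 library a side used a 2-fold rule on RPKM + 1 (RNA) or RPKM + 0.1 (promoters) at RPKM 1 or more. The fit was tested on simulated data: of 200 genes changed over both sexes among 13518, 75% were recovered at a log2 change of 1 and 97% at 2. Of the genes called there, 4.97% were unchanged ones. The simulated noise was independent between libraries and the change was the same in both sexes. It therefore gives no recovery for a change within 1 sex or for libraries that share a replicate effect.

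The 8 genes and the lists were chosen with earlier results of these data known. All members are described. Listed genes are named when past the threshold, up to 5 per list with the smallest p, or the 2 with the smallest p where fewer than 2 passed. With 1 library a side, the 3 largest ratios in each direction (RNA) or up to 5 called genes (promoters) are named. A few listed genes that this rule names are not reported here. Alternatives were another pseudocount, no filter, 2 scalings, a replicate block, Het1 or Het2 alone, each library left out and the compared libraries alone. The list of 29 p53 targets matched 28 genes. Sequences and neighbouring genes come from RefSeq tables of GRCm38.p6, not mm9. Values were read with Python 3.11.15.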

Additional observations from a re-analysis of the deposited data

How the results depend on the processing

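Pmaip1 and Bax passed between the sexes in all 21 alternatives, and Cflar was higher in KO in each alternative of the male, female and joint comparison. In males the count of 1 called member fell to 0 with a pseudocount of 0.1, median centring, quantile normalization, Het1 or Het2 alone and the compared libraries only, and ran from 0 to 1 with single libraries left out. Over both sexes it fell to 0 with quantile normalization, Het1 or Het2 alone, and ran from 0 to 1. Between the sexes 2 members passed with Het1 alone, 3 with Het2 alone or no filter, and 3 to 4 with single libraries left out; Trp53 missed at an adjusted p of 0.057 with no filter. The listed genes called between the sexes numbered 9 and 12 with Het1 and Het2 alone and 28 to 33 with single libraries left out. The labels do not say that replicate numbers pair the libraries. Same-numbered deviations correlated at 0.153 to 0.565 in 14 of 15 pairs of groups and at -0.0401 in the other, and replicate 1 scored above replicate 2 on the second principal component in 6 of 6 groups, a hint of a shared effect from the data and not from the design. With the replicate block, 1 listed gene (Ripk3) passed in males (1.30, adjusted p = 0.0334) and 1, again Ripk3, over both sexes (1.01, adjusted p = 0.0144), and no member's call changed. Without the 2 libraries that stood apart 1 listed gene passed in males (Kit), 2 in females (Ddb2 and Cdkn2a) and 5 over both sexes. All genes called ran from 29 to 185 in males, 2 to 588 in females, 44 to 566 over both sexes, 0 to 64 for the difference between the sexes and 1159 to 5347 between the sexes in Het. Some of these alternatives have fewer libraries, and the cause of the shifts was not tested.

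Signs turned for members that did not pass there. Over both sexes Bbc3 came to -0.011 (median centring), -0.080 (quantile) and -0.12 (without the 2 libraries), and from -0.066 to 0.21 with single libraries left out. Apaf1 came to -0.026, -0.043 and -0.043 under the same 3, and from -0.019 to 0.15. Trp53 came to 0.034 with Het2 alone, and from -0.22 to 0.088. Bax came to 0.042 (quantile) and 0.14 (Het2 alone), and from -0.12 to 0.068. Between the sexes Apaf1 came to -0.036, -0.055, -0.155 and -0.098 under median centring, quantile normalization, Het2 alone and without the 2 libraries, and from -0.15 to 0.18. Cflar came to -0.040, -0.16 and -0.11 under the first 3, and from -0.053 to 0.11. Among rules of size, members called for soma against germ cell H3K9me3 went from 2 to 0 with a pseudocount of 1 and to 7 with no minimum; for soma against germ cell RNA they numbered 6 to 8. Depth is unknown, and 2 KO libraries per sex limit every KO comparison.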

Other observations

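Cflar and Casp8 stand next to each other on chromosome 1 in RefSeq's order of genes. This was looked up after their values were seen. Their KO minus Het differences over both sexes were 0.84 (adjusted p = 0.0146) and 0.84 (adjusted p = 0.109), and in each sex every KO library of either gene exceeded every Het library. Of the other nearby genes in the table, Ndufb3 differed by 0.18 (95% interval -0.11 to 0.46), Fam126b by 0.28 (-0.16 to 0.71) and Trak2 by 0.21 (-0.07 to 0.48), and none passed by limma. The female KO libraries of Trak2 (6.25 to 6.6 RPKM) also lay above its female Het libraries (5.09 to 6.08). Trak2 in males, and Ndufb3 and Fam126b in both sexes, overlapped between KO and Het. Whether the difference of the neighbours is shared was not tested.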
